A study of Mus musculus with 10 samples.

Results

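The genes described here are those that build the proteasome and those that encode ubiquitin-conjugating enzymes, measured in mouse hepatocytes under normoxia and hypoxia. Members were the probe sets with 1 gene symbol starting with Psma, Psmb, Psmc, Psmd, Psme or Ube2, which gave 82 of 12488 probe sets, for 63 genes. The standard proteasome had 46 probe sets (36 genes), the immunoproteasome 5 (4 genes) and the Ube2 enzymes 29 (21 genes). The other 2 probe sets, for Psmc3ip and Psme3ip1, carry the prefix but encode proteins that bind a proteasome component and are no subunits, so they were kept apart. Psme2 was covered only by 2 probe sets shared with Psme2b, which have several symbols, and was not a member. Of the 82 probe sets, 68 (57 genes) passed the filter on low values and were tested, and the 14 others (6 standard, 1 immunoproteasome, 6 Ube2, 1 interacting protein) read between 0.3 and 50.3 on every array.

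The samples were 10 arrays of hepatocyte total RNA in 4 groups: 2 normoxic untreated controls, 2 normoxic adeno-treated controls, 3 hypoxic adeno-treated wild-type samples and 3 hypoxic HIF-1alpha null samples. No normoxic null sample was analysed here, and the labels of the null samples name no adeno treatment, so that genotype and any difference in that treatment cannot be told apart. The labels used here do not state the cargo of the virus, how the null cells were made, the normoxic cells' genotype, the oxygen tension or its duration, or the strain and age of the mice. The titles of the hypoxic adeno-treated samples name no genotype either, and wild type is the name given to that group here. Nor do they say whether arrays came from separate cultures, so p-values measure only the spread between these arrays, which may be technical. Each sample carries a number from 1 to 3 in its label (1 or 2 in the normoxic groups).

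The proteasome is the protease that degrades proteins tagged with ubiquitin. Its core is a stack of alpha and beta rings, with the peptidase sites in the beta rings, and the regulatory particle on top has a base of ATPases that unfold substrates and a lid that removes ubiquitin. Ubiquitin passes from an activating enzyme (E1) to a conjugating enzyme (E2, the Ube2 genes) and, with a ligase (E3), to the substrate; HIF-1alpha itself is destroyed this way in oxygenated cells. In the immunoproteasome, induced by interferon, Psmb8, Psmb9 and Psmb10 replace Psmb5, Psmb6 and Psmb7, and Psme1 with Psme2 forms an activator cap.

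RefSeq start-site windows (GRCm38.p6) were held for 52 of the 63 genes. Those of 5 genes named below, all with a motif match, are printed as the 250 bases before the annotated start. They run 5′ to 3′ on the gene's strand, with the match in capitals. Other genes that figure in the results are not printed: Psmd7 and Psma5 had no window, and no match was found for Psmd6 or Ube2v2. Psmd12 and Psma7 are subunits with lower values on the hypoxic arrays, Psmb6 is a catalytic subunit with the same pattern, Psmc6 is an ATPase with the opposite pattern, and Psmb8 is an immunoproteasome subunit that differed between sample numbers.
Psmd12 (chr11:107479278-107479527, plus strand): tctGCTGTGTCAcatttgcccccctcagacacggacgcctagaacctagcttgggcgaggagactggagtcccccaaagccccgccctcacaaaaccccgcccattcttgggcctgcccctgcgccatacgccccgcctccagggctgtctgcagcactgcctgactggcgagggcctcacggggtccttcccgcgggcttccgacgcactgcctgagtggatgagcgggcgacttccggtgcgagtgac
Psmb6 (chr11:70525107-70525356, plus strand): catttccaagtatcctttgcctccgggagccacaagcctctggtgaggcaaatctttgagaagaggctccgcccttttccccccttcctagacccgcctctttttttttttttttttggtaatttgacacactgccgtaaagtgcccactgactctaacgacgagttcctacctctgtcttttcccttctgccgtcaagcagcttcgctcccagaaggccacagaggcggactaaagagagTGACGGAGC
Psmc6 (chr14:45329574-45329823, plus strand): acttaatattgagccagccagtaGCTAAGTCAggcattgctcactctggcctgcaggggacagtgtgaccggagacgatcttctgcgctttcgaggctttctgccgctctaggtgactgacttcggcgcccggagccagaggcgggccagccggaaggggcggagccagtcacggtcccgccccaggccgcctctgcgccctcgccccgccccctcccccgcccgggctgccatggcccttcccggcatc
Psma7 (chr2:180042465-180042714, minus strand): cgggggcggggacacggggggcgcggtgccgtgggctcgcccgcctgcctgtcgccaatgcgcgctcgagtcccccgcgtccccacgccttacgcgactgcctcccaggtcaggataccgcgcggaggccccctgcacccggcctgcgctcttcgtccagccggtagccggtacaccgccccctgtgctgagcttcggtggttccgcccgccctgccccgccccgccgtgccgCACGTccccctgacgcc
Psmb8 (chr17:34197945-34198194, plus strand): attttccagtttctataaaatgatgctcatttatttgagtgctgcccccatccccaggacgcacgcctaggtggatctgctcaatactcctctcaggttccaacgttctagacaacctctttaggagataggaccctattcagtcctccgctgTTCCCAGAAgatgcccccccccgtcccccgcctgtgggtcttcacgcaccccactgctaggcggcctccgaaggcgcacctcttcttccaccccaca
Capitals in Psmd12, Psmb6 and Psmc6 mark the core of the antioxidant response element, TGACNNNGC, searched on both strands of every window. It was present in 10.2% of all 32851 windows and in those of 5 of the 30 standard proteasome genes with a window (Psmb5, Psmb6, Psmc6, Psmd9, Psmd12). In Psma7 they mark the core of the hypoxia response element, ACGTG, found in 16.6% of all windows and in 7 of the 30 standard proteasome genes (Psma1, Psma4, Psma7, Psmb5, Psmd9, Psmd13, Psme3). In Psmb8 they mark TTCNNNGAA, the palindrome of the gamma interferon activation site, found in 7.02% of all windows, in 1 of 4 immunoproteasome genes and in no standard proteasome gene. A match is a stretch of letters in the window and not a measured site.

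On hepatocyte markers the arrays matched their label: albumin (Alb) read 8039 to 13761 and Ttr 578 to 1299 on every array. Markers of stellate cells and fibroblasts were also present, with Col1a1 between 852 and 3873 on its brighter probe set, and so were 2 macrophage genes, with Cd68 between 65.9 and 254 and Csf1r between 36.5 and 76.2 on their tested probe sets. Adgre1, another macrophage gene, read 3.9 to 20.2 and a further Cd68 probe set 1.8 to 12.2, all untested. Of 29 macrophage marker probe sets, 12 passed the filter on low values. Ptprc, a marker of leukocytes, read at most 5.5 on its 3 probe sets. For Hif1a, the labelled-null arrays read 850 to 1647 on one probe set and 910 to 1689 on the other, against 703 to 962 and 704 to 1096 in hypoxic wild type, with overlap. The direction is opposite to a loss of the transcript, and whether these probes lie in a deleted part is not stated, so they check nothing about the label and the null genotype is given as labelled throughout. Correlations between arrays were taken on deviations from the group mean, which sum to 0 within a group. Where same-number pairs lie above 0, this alone pulls the other pairs below 0. Arrays of the same number deviated together: across all tested probe sets the 3 same-number pairs of hypoxic arrays correlated at 0.54 to 0.68 and the other pairs at -0.52 to -0.15. Between normoxic and hypoxic arrays the number was shared less clearly. Normoxic arrays 2 correlated at 0.11 to 0.18 with hypoxic arrays 2 and at 0.15 to 0.25 with hypoxic arrays 3. A second fit carried the sample number as a block, and its comparisons with normoxia take number 2 as shared all the same. The 3 control probe sets for 18S RNA, averaged on the log2 scale, read 12.33 and 12.18 on the hypoxic arrays numbered 3 and 5.98 to 10.25 on the 8 others.

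No proteasome or Ube2 probe set passed the test between hypoxic wild-type and normoxic adeno-treated cells (limma, adjusted p under 0.05 over 7453 probe sets), where 0.322% of all probe sets passed, every one of them higher. With the sample number as a block, 2 members passed, both lid subunits and both lower in hypoxia: Psmd7 and Psmd12. In that fit 2.23% of all probe sets passed, 0.738% as lower. At an unadjusted p under 0.05, without the block, 7 of 68 members stood against 7.93% of all probe sets.

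Psmd7, which holds the deubiquitinase Psmd14 in the lid, read 899 and 858 on the normoxic adeno-treated arrays and 542, 370 and 681 on the hypoxic wild-type arrays. The groups did not overlap, and array 2 of the hypoxic group was the lowest of all 10. The means were 878 ± 29.3 (SD, n = 2) and 531 ± 156 (SD, n = 3), a log2 change of -0.76 ± 0.24 (SE, adjusted p = 0.410), and -0.89 ± 0.16 with the block (adjusted p = 0.0240).

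Psmd12, another structural subunit of the lid, read 266 and 249 on the normoxic adeno-treated arrays against 176, 126 and 190 on the hypoxic wild-type arrays. Again there was no overlap and hypoxic array 2 was lowest. Its log2 change was -0.66 ± 0.21 (SE, adjusted p = 0.426), and -0.75 ± 0.16 with the block (adjusted p = 0.0492). Its probe set is of a type (suffix f) designed on sequence shared within a gene family, so similar transcripts could add to its signal. Of the 68 tested members, 9 carry this suffix. Counted with the suffixes s and r, which mark other probe set types, the number is 13. Both calls rest on few arrays: with the block, Psmd12 had adjusted p = 0.0836 without hypoxic array 3, 0.0911 without hypoxic array 1, 0.175 without hypoxic array 2, 0.144 without normoxic adeno-treated array 1 and 0.297 without array 2. Psmd7 kept its call without hypoxic array 3 (adjusted p = 0.0265) and lost it without hypoxic array 1 (0.0606) or 2 (0.109) or normoxic adeno-treated array 1 (0.0898) or 2 (0.234).

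**Figure D1:**
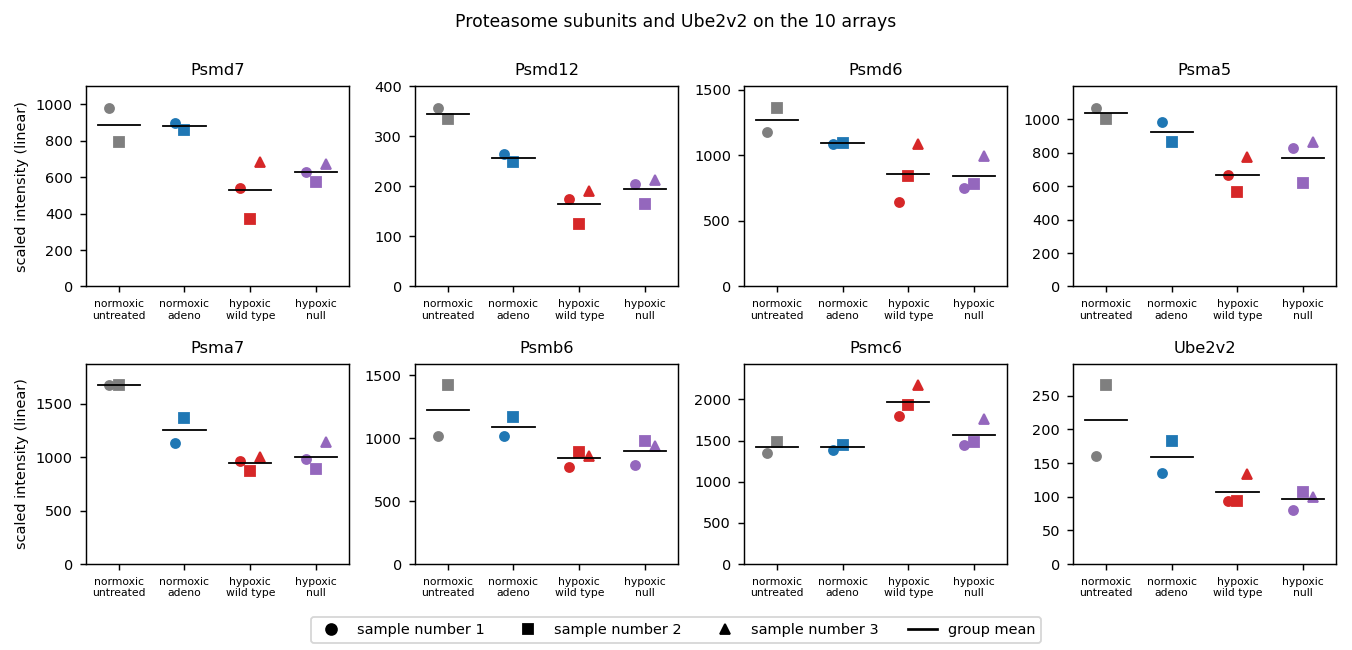
Scaled intensity (linear axis from 0) on the 10 arrays for 7 proteasome subunits and Ube2v2, by group; marker shapes give the sample number and horizontal lines the group means. Psmd7 and Psmd12 lie lower on all 6 hypoxic arrays than on all 4 normoxic arrays, while Psmc6 is highest on the 3 hypoxic wild-type arrays.

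Taken by parts of the complex, the log2 changes from normoxic adeno-treated to hypoxic wild type lay more often below than above 0 in each part of the standard proteasome (the 2 nuclear activators split with the block), and differences between parts were not tested. Of the 40 tested probe sets of the standard proteasome, 30 were below 0 with a median of -0.14, against 52.8% of all probe sets and a median of -0.02. The alpha ring had 6 of 7 below 0 (median -0.29), the beta ring 6 of 9 (-0.20), the base ATPases 6 of 7 (-0.08), the base scaffold and receptor subunits 2 of 2 (-0.10), the lid 6 of 10 (-0.12), the base assembly chaperones 2 of 3 (-0.26) and the nuclear activators Psme3 and Psme4 2 of 2 (-0.09). In 16 of the 68 members every hypoxic wild-type array lay below both normoxic adeno-treated arrays, 13 of them in the standard proteasome, where 13.1% of all probe sets did so. The reverse held for 5 members and 11.6% of all probe sets.

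In the alpha ring, Psma7 read 1131 and 1369 in normoxic adeno-treated cells and 967, 873 and 1001 in hypoxic wild-type cells. The groups stood apart, with a log2 change of -0.39 ± 0.17 (SE) that did not pass (adjusted p = 0.587, and 0.112 with the block). Psma5 read 982 and 862 against 664, 563 and 774, also without overlap, and its interval ran from -0.92 to -0.02 on the log2 scale (95%). Of the catalytic beta subunits, Psmb6 (caspase-like site) read 1015 and 1168 against 773, 891 and 859, and Psmb7 (trypsin-like site) read 974 and 952 against 1033, 957 and 1105. Psmb5 (chymotrypsin-like site) read 2336 and 2277 against 1621, 1782 and 1899 on its brighter probe set, while its other probe set, at 101 and 160 against 174, 131 and 177, lay the other way with overlap (log2 change 0.31 ± 0.27, SE, adjusted p = 0.840).

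Psmc6, an ATPase of the base, went against the rest of its ring. It read 1385 and 1448 in normoxic adeno-treated cells, 1800, 1931 and 2171 in hypoxic wild-type cells, and 1447, 1480 and 1756 on the hypoxic arrays labelled null. Hypoxic wild type lay above both other groups without overlap. Its log2 change from normoxic adeno-treated to hypoxic wild type was 0.47 ± 0.16 (SE, adjusted p = 0.439, and 0.0955 with the block). The 6 other ATPase probe sets ran from -0.32 to -0.03, none passing.

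**Figure D2:**
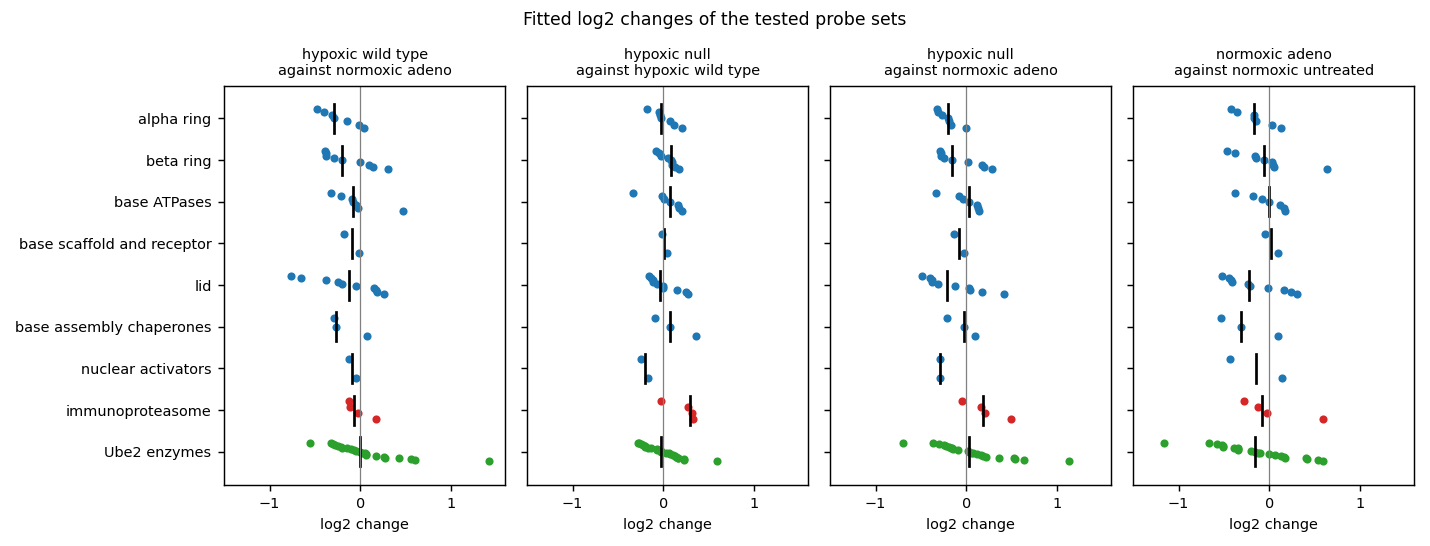
Fitted log2 changes (horizontal axis, log2 of value plus 4.7) of the tested probe sets in the 4 comparisons, by part of the proteasome and for the Ube2 enzymes; each point is 1 probe set and black bars are medians. In hypoxic wild type against normoxic adeno-treated cells the alpha ring's median is -0.29 and the Ube2 enzymes' is 0.00.

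The Ube2 enzymes had 12 of 23 probe sets above 0 and a median of 0.00 in the same comparison. The largest difference was in Ube2h, an E2 that works with the CTLH ligase: on one of its probe sets it read 28.2 and 107 in normoxic adeno-treated cells and 145, 184 and 147 in hypoxic wild-type cells. Its 2 normoxic arrays were far apart, and the log2 change of 1.42 ± 0.42 (SE) did not pass (adjusted p = 0.359, and 0.0542 with the block). The other probe set read 92.8 and 122 against 104, 87.1 and 72.1, so the pair do not show the same direction. Ube2v2, the catalytically inactive partner with which Ube2n builds K63-linked chains, read 135 and 183 against 93.0, 93.7 and 134, a log2 change of -0.56 ± 0.28 (SE, adjusted p = 0.670). Ube2n itself read 971 and 1041 against 887, 1004 and 833, and Ube2v1, the other partner, 740 and 926 against 722, 609 and 688. Ube2g1, another E2, read 435 and 457 against 609, 647 and 796, without overlap (0.60 ± 0.30, SE, adjusted p = 0.672).

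**Figure D3:**
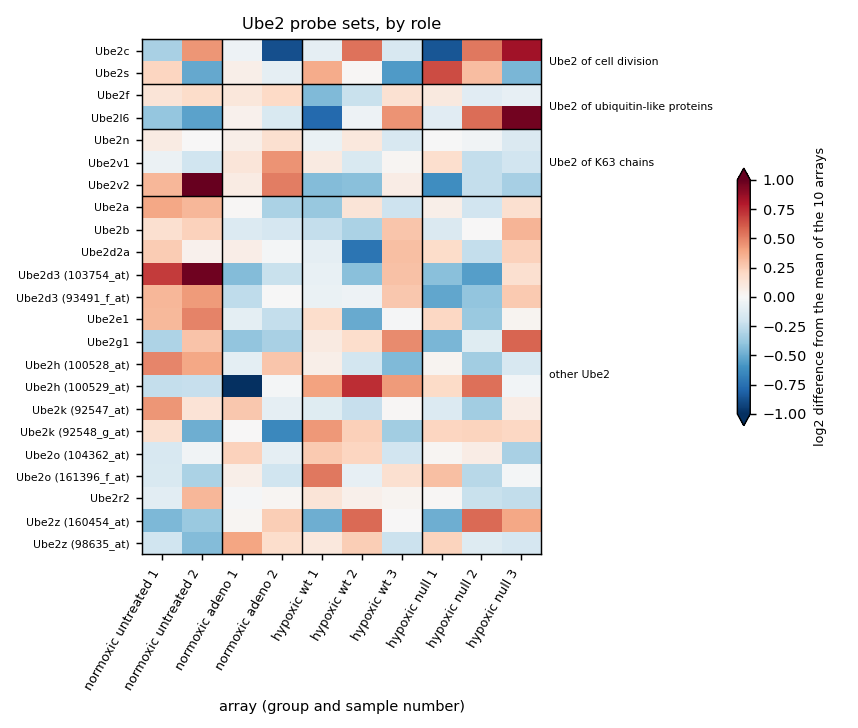
Log2 difference of each tested Ube2 probe set from its mean over the 10 arrays (colour, limits at -1 and 1), with arrays in columns by group and sample number and rows grouped by role. Ube2d3 is high on the 2 normoxic untreated arrays on both of its probe sets, and Ube2l6 is highest on the labelled-null array 3.

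Cells labelled HIF-1alpha null were set against wild-type cells, both hypoxic, to ask which members depend on the factor. No member passed with or without the block; 0% of all probe sets passed without it and 0.134% with it, and 1 member stood at an unadjusted p under 0.05 against 3.38% of all probe sets. The standard proteasome's median was 0.01 with 21 of 40 probe sets above 0, and that of the Ube2 enzymes -0.02 with 11 of 23 above 0. For the standard proteasome the median half-width of the 95% intervals was 0.40 on the log2 scale, a 1.32-fold change, so changes smaller than about that could not be told from 0. These intervals are not adjusted over the probe sets tested, so larger changes can also fail the test.

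The member at p under 0.05 was Psmc6, with a log2 change of -0.33 ± 0.14 (SE, adjusted p = 0.999, and 0.255 with the block) and the 3 labelled-null arrays all below the 3 wild-type arrays. Psmd7 read 631, 576 and 674 on the labelled-null arrays and Psmd12 205, 165 and 214, both overlapping with wild type. The differences of Psmd7 and Psmd12 from wild type had 95% intervals of -0.20 to 0.76 and -0.17 to 0.68. Among all members 2 lay higher and 2 lower on every labelled-null array than on every wild-type array, where 4.04% of all probe sets were higher and 2.74% lower in this way. Ube2r2, the E2 of cullin ligases, read 1389, 1186 and 1166 against 1512, 1434 and 1410, without overlap (-0.22 ± 0.15, SE, adjusted p = 0.999).

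In the immunoproteasome no probe set passed between hypoxic wild-type and normoxic adeno-treated cells, and for each of the 4 the groups overlapped. Psmb8 read 148 and 154 in normoxic adeno-treated cells and 164, 133 and 226 in hypoxic wild type, Psmb9 105 and 109 against 72.9, 100 and 130, and Psmb10 295 and 382 against 297, 272 and 358. Psme1 read 516 and 533 against 502, 450 and 606, and the median log2 change of the 4 was -0.07. These 4 changes took the other sign under some settings given with the processing checks.

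Of the same 4 probe sets, 3 lay above 0 between labelled-null and wild-type hypoxic cells, with a median of 0.30, and none passed. Psmb10 read 288, 383 and 529 on the labelled-null arrays and 297, 272 and 358 in wild type (0.33 ± 0.23, SE, adjusted p = 0.999). Psmb8 read 154, 209 and 302 against 164, 133 and 226, and Psmb9 86.6, 136 and 147 against 72.9, 100 and 130. Each pair of groups overlapped. Psme1 read 555, 446 and 531 against 502, 450 and 606, with a log2 change of -0.02 ± 0.16 (SE). Ube2l6, the E2 that joins the ubiquitin-like protein Isg15 to its targets, read 117, 189 and 253 against 72.4, 123 and 176 (0.59 ± 0.34, SE, adjusted p = 0.999, and 0.59 ± 0.22 with adjusted p = 0.397 with the block). Between arrays of the same number, Ube2l6 was higher on the labelled-null array in 3 of 3 pairs, by 0.66, 0.60 and 0.52 on the log2 scale, and Psmb9 in 3 of 3, by 0.23, 0.42 and 0.17. Psmb8 and Psmb10 were higher in 2 of 3 pairs, and with the block none of these genes passed. Also higher in 3 of 3 pairs were Psma1, Psma5, Psma7, Psmb6, Psmc2, Psmc3 (on its brightest probe set), Psmd10, Psmd12, Ube2b, Ube2e1 and Ube2s. Higher in 0 of 3 were Psmc6, Psmd3, Psmd13, Ube2r2, and Ube2d3 and Ube2o on each tested probe set. Psmd11 and Ube2h were so on a single probe set. The share of all probe sets with such pairs was not counted.

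Hypoxic labelled-null against normoxic adeno-treated cells holds hypoxia, genotype and any difference in adeno treatment together, and it shares its control arrays with the comparison of hypoxic wild type. No member passed in limma without the block, where 0.429% of all probe sets did, or with it, where 5.78% did; 2 members stood at an unadjusted p under 0.05 against 9.74% of all probe sets. The standard proteasome had 27 of 40 probe sets below 0 and a median of -0.15, with all 7 alpha ring probe sets below 0. In 16 members every labelled-null array lay below both control arrays and in 1 member above them, beside 12.1% and 13.8% of all probe sets. Psmd7 had a log2 change of -0.49 ± 0.24 (SE, adjusted p = 0.557, and 0.0613 with the block), beside -0.76 in wild type. Ube2v2 read 81.0, 107 and 100 on the labelled-null arrays against 135 and 183, a log2 change of -0.69 ± 0.28 (SE, adjusted p = 0.437, and 0.0606 with the block), beside -0.56 in wild type.

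Normoxic adeno-treated against untreated cells asks what the virus changes without hypoxia. No member passed, as for all probe sets without the block (0%), and with the block 0.255% of all probe sets and no member passed in limma. At an unadjusted p under 0.05 stood 4 members against 8.32% of all probe sets. The largest difference was in Ube2d3, an E2 that serves many ligases: on the dimmer of its probe sets it read 104 and 120 with virus and 232 and 282 without, a log2 change of -1.16 ± 0.30 (SE, adjusted p = 0.498, and 0.0606 with the block). Its other probe set read 245 and 292 against 370 and 394. Both showed the same direction without overlap.

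The beta subunit Psmb2 read 1178 and 1285 with virus against 913 and 687 (0.63 ± 0.19, SE, adjusted p = 0.498), and Psmb9 105 and 109 against 75.9 and 63.3 (0.59 ± 0.32, SE, adjusted p = 0.666). The E2 Ube2z read 327 and 280 against 215 and 183 on its brighter probe set and 141 and 165 against 100 and 106 on the other. Psma7 read 1131 and 1369 against 1673 and 1673, and the deubiquitinase of the lid, Psmd14, 668 and 508 against 923 and 762. None of these groups overlapped, but with 2 arrays a group this was common: 24.3% of all probe sets were lower and 24.6% higher without overlap, beside 24 and 10 of the 68 members.

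Because several subunits were lower in both hypoxic groups, the mean of the 2 hypoxic groups was also set against the mean of the 2 normoxic groups, a contrast chosen after the values were seen. It mixes genotype and virus treatment, since the normoxic arrays include the untreated ones and the hypoxic arrays the labelled null. Without the block, Psmd12 (-0.74 ± 0.15, SE, adjusted p = 0.0487) and Psma7 (-0.57 ± 0.12, SE, adjusted p = 0.0497) fell, and 0.523% of all probe sets were called lower and 1.46% in either direction. Both calls stood at the threshold: without each of the 10 arrays in turn, Psmd12 was never called (adjusted p from 0.0534 to 0.190) and Psma7 was called once, without the labelled-null array 3 (0.0456).

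With the sample number as a block, 14 members were called, 13 lower and 1 higher (Ube2h, on the probe set that was higher in hypoxic wild type), where 7.33% of all probe sets were called lower and 5.72% higher. The 13 were Psma1, Psma5 and Psma7 of the alpha ring, Psmb4, Psmb5 (on its brighter probe set) and Psmb6 of the beta ring, Psmd6, Psmd7 and Psmd12 of the lid, the base assembly chaperone Psmd9, the nuclear activator Psme4, and the E2 genes Ube2d3 and Ube2v2. No base ATPase was among them. The called probe sets of Psmb4 and Psmd12 carry the suffix f, that of Psmb5 the suffix s and that of Psmd9 the suffix r. The other probe set of Psmb5 had a log2 change of 0.22 in this contrast, and 0.10 with the block (adjusted p = 0.746). The called probe set of Ube2d3 read 232 and 282 on the untreated arrays, while its adeno-treated arrays, at 104 and 120, lay inside the range of its 6 hypoxic arrays (95 to 175). Leaving out each of the 10 arrays in turn gave between 6 and 14 calls, and 6 members were called lower in all 10 fits, 8.82% of the members, where 2.32% of all probe sets were.

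The 6 were Ube2v2 (-0.92 ± 0.16, SE, adjusted p = 0.00589), Psmd12 (-0.83 ± 0.12, 0.00296), Psmd7 (-0.76 ± 0.12, 0.00452), Psmd6 (-0.64 ± 0.10, 0.00414), Psma7 (-0.63 ± 0.10, 0.00452) and Psma5 (-0.56 ± 0.10, 0.00596). Psmd6, a lid subunit, read 1181 and 1364 untreated, 1089 and 1094 adeno-treated, 642, 845 and 1089 in hypoxic wild type and 755, 783 and 999 on the labelled-null arrays, and its hypoxic wild-type array 3 reached the normoxic level. Ube2v2 read 161 and 266 untreated, so its 4 normoxic arrays ran from 135 to 266 and its 6 hypoxic arrays from 81.0 to 134. Psmd12 read 358 and 334 untreated and Psmd7 981 and 796, also above every hypoxic array. Psma7 read 1673 on both untreated arrays but 1131 and 1369 on the adeno-treated ones. Its labelled-null array 3, at 1137, lay above adeno-treated array 1. In 7 members every hypoxic array lay below every normoxic array (Psma2, Psma5, Psmb3, Psmb6, Psmd7, Psmd12, Ube2v2), 10.3% of members beside 2.75% of all probe sets, and in no member did the reverse hold, beside 2.62%.

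**Figure D4:**
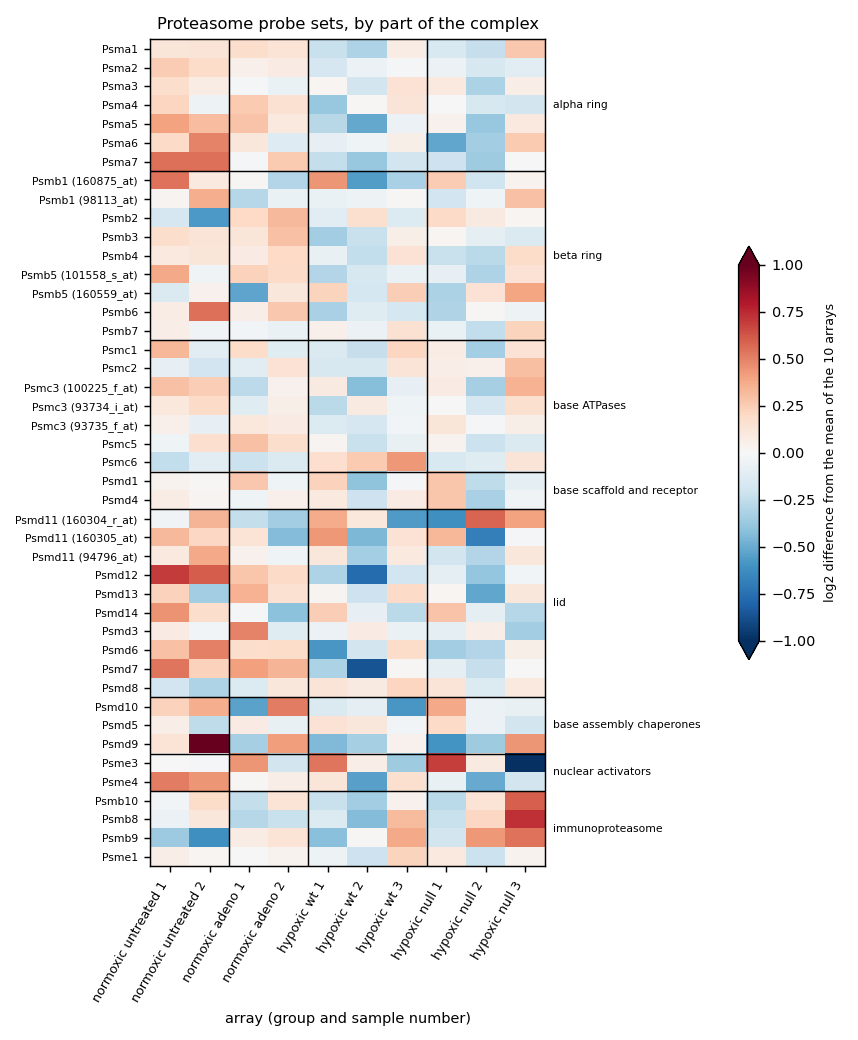
Log2 difference of each tested proteasome probe set from its mean over the 10 arrays (colour, limits at -1 and 1), with arrays in columns by group and sample number and rows grouped by part of the complex. Of the 16 alpha and beta ring probe sets, 6 are above their mean on all 4 normoxic arrays, and the standard proteasome's median deviation is lowest on hypoxic arrays 2 (-0.18 in wild type and -0.22 labelled null).

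Over the 40 standard proteasome probe sets, the median deviation of an array from the mean of the 10 was 0.07 to 0.13 on the normoxic arrays, -0.07, -0.18 and 0.01 on the hypoxic wild-type arrays and 0.00, -0.22 and 0.06 on the labelled-null arrays. The same median over all tested probe sets stayed between -0.03 and 0.05. Hepatocyte markers were lower beside these subunits in hypoxia, with 15 of 20 probe sets below 0 and a median of -0.25 in the contrast of all hypoxic and normoxic arrays, and with the block a median of -0.41 and 10 called lower. In the same contrast the 22 stellate cell probe sets had a median of 0.08 with no call, and with the block a median of 0.45 and 11 called higher. The tight junction gene Cldn4, from the biliary list, rose in hypoxic wild type by 2.48 ± 0.39 (SE, adjusted p = 0.0310), and the macrophage gene Cd68 rose in the contrast of all hypoxic and normoxic arrays (1.03 ± 0.21, adjusted p = 0.0446). It was the only call among 12 macrophage probe sets there, of which 6 lay above and 6 below 0 (median 0.01). Whether a shift in cell makeup takes part in the subunits' values was not tested, and fewer cells of a type and less RNA per cell cannot be told apart here.

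Some members differed more between sample numbers than between groups. On the hypoxic arrays numbered 3 against those numbered 1, Ube2l6 was higher by 1.22 in wild type and 1.08 in labelled null on the log2 scale, Psmb9 by 0.80 and 0.73, Psmb8 by 0.46 and 0.95, and Psmb10 by 0.26 and 0.87. Psme3, a nuclear activator, was lower on number 3, with -0.88 and -1.97, and Ube2s, which extends chains for the anaphase-promoting complex, with -0.94 and -1.11. These are descriptions chosen after the values were seen, with no test. Psme3 read 548, 396 and 295 in hypoxic wild type and 614, 403 and 153 on the labelled-null arrays.

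Other lists moved with the number as well. From number 1 to number 3, stellate cell markers had a mean-difference median of -1.27 (19 of 22 lower in both groups), proliferation genes -0.48 (16 of 22) and hepatocyte markers 0.45 (16 of 20 higher in both groups). Lymphocyte markers had 0.63 (4 of 6 higher in both groups, 0 lower), endothelial markers -1.16, biliary markers -0.68 and macrophage markers -0.41. Of all 7453 tested probe sets, 2473 (33.2%) were higher in both groups and 2657 lower, with a median of 0.00. The summed level of the 19 stellate cell marker genes ran from 7006 to 20859 on the hypoxic wild-type arrays and from 6397 to 19698 on the labelled-null arrays, against 12092 to 12794 in normoxic adeno-treated cells. No gene of that list read under 4.7 on all 10 arrays. The part of cell makeup or of the 18S signal in the number differences of Psmb8, Psmb9, Psmb10, Ube2l6, Psme3 and Ube2s was not tested.

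**Figure D5:**
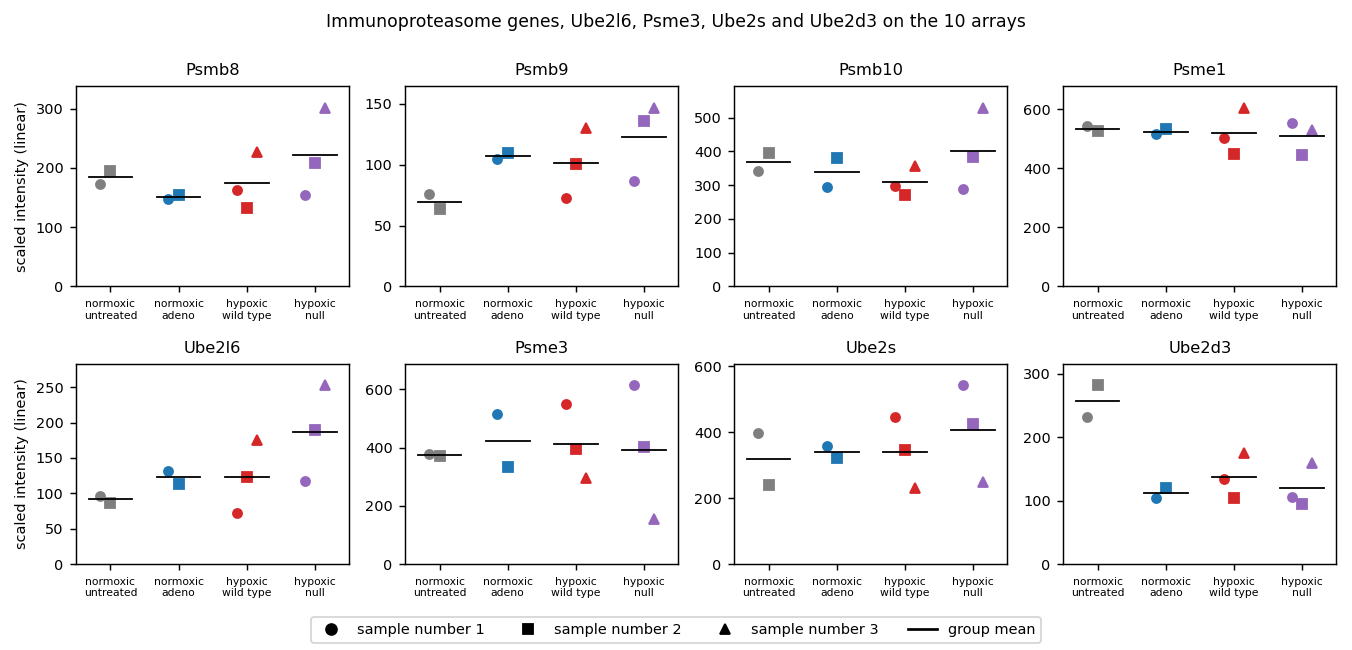
Scaled intensity (linear axis from 0) of the immunoproteasome genes, Ube2l6, Psme3, Ube2s and Ube2d3 on the 10 arrays by group; marker shapes give the sample number and lines the group means. Psmb8, Psmb9, Psmb10 and Ube2l6 are highest on number 3 in both hypoxic groups, Psme3 and Ube2s lowest, and Ube2d3 is high on the untreated arrays.

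As a description over 10 arrays, which share hypoxia, virus and sample number, pairs of standard proteasome probe sets had a median correlation of 0.23, pairs of immunoproteasome probe sets 0.36, pairs of Ube2 probe sets -0.04 and pairs of all probe sets 0.00. Psma5 and Psmd12 correlated at 0.96 and Psmd7 and Psmd12 at 0.92. Psmb9 correlated at 0.93 with Ube2l6 and at 0.50 with Psmb8, although Psmb9 and Psmb8 lie beside each other on chromosome 17 with Tap1 between them, and Psmb8 correlated at 0.88 with Psmb10 on chromosome 8. Psme1, on chromosome 14, correlated at 0.28 with Psmb8 and at -0.05 with Psmb9.

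The rest of the ubiquitin pathway was read through lists chosen with earlier results of these data known. Between hypoxic wild-type and normoxic adeno-treated cells, without the block, 0 of 7 ubiquitin-like protein probe sets, 0 of 4 E1, 0 of 29 cullin ligase, 0 of 29 other ligase and 0 of 22 deubiquitinase probe sets passed. Of 31 for shuttles and accessory proteins, 1 passed: Zfand2a, a stress-induced protein that binds the proteasome, rose from 129 to 300 (log2 change 1.18 ± 0.19, SE, adjusted p = 0.0338) and to 409 on the labelled-null arrays (1.62 ± 0.19, adjusted p = 0.00782). With the block, Usp10, a deubiquitinase, fell from 527 to 303 (-0.84, adjusted p = 0.0242) and Trim25, a ligase of antiviral signalling, fell by 1.07 (adjusted p = 0.0333).

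In the other 3 comparisons, without the block, the same pathway lists held no call but Zfand2a. Proliferation genes had 17 of 22 probe sets below 0 in hypoxic wild type against normoxic adeno-treated cells (median -0.23), beside 52.8% of all probe sets. In labelled-null against wild-type hypoxic cells 20 of 22 lay above 0 (median 0.28), beside 4099 of all 7453. None passed in either. The hypoxic wild-type arrays enter both comparisons, so low values on them alone would give both directions.

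Genes of the NRF2 antioxidant programme, which in other settings drives proteasome subunits, were read in hypoxic wild type against normoxic adeno-treated cells. There 21 of 27 probe sets lay below 0 with a median of -0.28, none passing without the block. With it, Cbr1 fell (-0.98, adjusted p = 0.0234) and Hmox1 rose (0.68, adjusted p = 0.0240). From untreated to adeno-treated normoxic cells 15 of 27 lay above 0, with a median of 0.13. The summed level of the 24 genes ran from 43544 to 43968 untreated, 51865 to 61442 in normoxic adeno-treated cells and 43772 to 51348 in hypoxic wild type. Interferon and antigen presentation genes were split 13 to 13 in hypoxic wild type against normoxic adeno-treated cells, with a median of -0.03. Of these, H2-Ab1, a class II chain encoded in the same region as Psmb8, rose from 27.8 to 98.9 (1.67 ± 0.27, SE, adjusted p = 0.0346).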

How the data were processed

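Each array held 12488 probe sets, 66 of them controls, as linear intensity values deposited by the authors. Leaving out the lowest and highest 2% of values, array means were 200.0 to 200.4, as after scaling to a common target; no label or header used here names the software, scaling or probe summary. Gene symbols came from the platform annotation, and all 82 members matched a RefSeq gene ID. Values were turned to log2(value + 4.7), where 4.7 is the 10th percentile, and 7453 probe sets at or above the 40th percentile of mean log2 were tested with limma 3.58.1 (R 4.3.3): 4 group means, moderated variance with a trend, Benjamini-Hochberg adjustment over all tested probe sets, threshold 0.05. Residual degrees of freedom were 6 (4 with the sample number as a block), and the number of arrays limits the precision. Fold changes on this scale understate the change of dim probe sets.

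The block was fitted because same-number arrays deviated together: 13 of 13 same-number pairs between groups correlated above 0.1 (lowest 0.11). These pairs are not separate agreements. In a normoxic group of 2 arrays the deviations mirror each other, so the normoxic pairs numbered 1 and 2 both gave 0.38. The normoxic arrays carry no number 3, so the number 3 arrays inform a comparison with normoxia only through the difference of the hypoxic groups. The script was tested on simulated data. Members and lists were chosen with earlier results of these data known. The rule for named genes took the immunoproteasome genes with their constitutive counterparts, all called members, the 3 members of smallest p per class and direction, Ube2 enzymes of special role, probe sets that disagree, and from each list the called members; single-gene alternatives are given for those whose values are printed, a choice made after the alternatives were seen, and as a count for the whole rule; the contrast of all hypoxic with all normoxic arrays and the sample number differences were added after values were seen. Alternatives were other offsets, filters, quantile normalization, median centring, no trend, all normoxic arrays as reference, and leaving out arrays.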

Additional observations from a re-analysis of the deposited data

How the results depend on the processing

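Without a block, no member was called in any of the 4 comparisons of groups under any offset, filter, normalization, reference or omitted array tried. With the replicate block, 2 members were called between hypoxic wild type and normoxic adeno-treated cells, 1 without the hypoxic number 3 arrays (Psmd7) and 4 with all 4 normoxic arrays as reference (Psma5, Psmd6, Psmd7, Psmd12); leaving out single arrays gave 0 to 1, which was Psmd7 without hypoxic array 3 and Ube2h without normoxic array 2. Labelled null against normoxic adeno gave 4 with the block and that reference (Psmd6, Psmd7, Psmd12, Ube2v2). The block alone changed no count of members called in the other 3 comparisons. In the added contrast of all hypoxic with all normoxic arrays the 2 calls became 1 with an offset of 2.35, 0 with no filter, 1 with quantile normalization, 4 without the hypoxic number 3 arrays, 14 with the replicate block and 14 with the block and without those arrays. Leaving out single arrays gave 0 to 1 there, and 6, 7, 8, 11 or 14 with the block. The medians of the 3 classes stayed within 1 SD between arrays in 179 of 195 alternatives. That of the standard proteasome in hypoxic wild type was -0.25 with the block and without normoxic array 1. That of the Ube2 enzymes, whose SD is 0.049, was -0.077 in that comparison with all 4 normoxic arrays as reference, with or without the block, -0.062 with the block and without normoxic array 1, and -0.092 to 0.049 without single arrays. In labelled null against normoxic adeno it was -0.093 with no filter, -0.032 with the block, -0.055 without the number 3 arrays (also with the block), -0.064 with all 4 normoxic arrays as reference (-0.12 with the block), and -0.055 to 0.12 without single arrays. Between the normoxic groups it ran from -0.16 to -0.046 without single arrays. Of 610 alternative log2 changes of the members given by value in the 4 comparisons of groups, 12 changed sign. In hypoxic wild type, Psmb8 was -0.052 with the block, -0.030 without the number 3 arrays and -0.030 to 0.34 without single arrays, and Psmb9 was 0.18 against all 4 normoxic arrays and -0.31 to 0.091 without single arrays. Without single arrays Psmb10 ran from -0.31 to 0.058, Psme1 from -0.14 to 0.072 and the dimmer Psmb5 probe set from -0.010 to 0.63. Between labelled null and wild type, Psme1 was 0.0055 after quantile normalization, 0.065 without the number 3 arrays and -0.12 to 0.096 without single arrays. Over all 163 pairs of probe set and comparison that the rule for named genes covers, most of them not given by value here, 171 of 2345 alternatives (7.29%) changed sign, in pairs whose log2 change was at most 0.31 in size; no value that changed sign had an adjusted p under 0.48. The cause of these shifts was not tested.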

Other observations

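Where a gene had several tested probe sets, they did not always point the same way. Ube2k, an E2 that builds K48-linked chains, had group means of 212 in normoxic adeno-treated and 182 in hypoxic wild-type cells on one probe set, and of 146 and 198 on the other. Psme3ip1, which binds a proteasome activator and is no subunit, read 209 and 230 on the normoxic adeno-treated arrays, 199.6, 181 and 184.5 in hypoxic wild type and 211, 190.4 and 177 on the labelled-null arrays. None of these differences passed the test.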
